A study of Mus musculus with 9 samples.

Results

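The genes described here encode nuclear-encoded subunits of the mitochondrial respiratory chain and of ATP synthase, measured in a murine oral squamous cancer line with and without a Csmd3 knockout. Members were taken by gene symbol alone, each on a single row and with a mean of 1 FPKM or more over the 9 libraries. Names began with Ndufa, Ndufb, Ndufc, Ndufs or Ndufv (complex I), Uqcr (complex III), Cox4 to Cox8 (complex IV) or Atp5 (ATP synthase). Sdha to Sdhd (complex II), Cyc1 (complex III) and Cycs (cytochrome c) were taken as full names. Of 71 matching names, 8 were pseudogenes by name and 4 lay under 1 FPKM, which left 59 members among 15446 uniquely named genes. They comprise 22 complex I genes, 5 complex I assembly factors that carry the same prefix, 3 of complex II, 6 of complex III, 1 of cytochrome c, 9 of complex IV and 13 of ATP synthase, also called complex V. The set is incomplete: 98 protein-coding symbols of the RefSeq mouse annotation match the same pattern, 57 of them members, and core subunits such as Sdha, Ndufs7, Uqcrfs1 and Atp5f1b were not analysed here.

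RNA came from ROC6 cells, a line from a murine oral squamous cell carcinoma, grown in DMEM with serum. There were 3 groups of 3 libraries: Csmd3 knockout made with guide 1, Csmd3 knockout made with guide 2, and WT control. The series describes the knockouts as clone 1 and clone 2, so each guide appears to stand for 1 clone, and guide, clone and knockout cannot be told apart within a group. Separate cultures are not stated for the replicates. Every p-value below therefore reflects library-to-library spread alone, and that spread may be only technical.

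Complexes I to IV sit in the inner mitochondrial membrane. Electrons from NADH enter at complex I and those from succinate at complex II, ubiquinone carries both to complex III, and cytochrome c carries them on to complex IV, which reduces oxygen. Complexes I, III and IV pump protons, and ATP synthase lets the protons back through a ring of c subunits that turns its catalytic head. Most subunits are encoded in the nucleus, a few in mitochondrial DNA, and many tumour cells run this chain beside a high rate of glycolysis. The 13 mitochondrially encoded subunits were not analysed here.

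Values are FPKM, a gene's fragments scaled by transcript length and by the mapped total, so each is a share of its library, and the read depth behind it is unknown. In bulk RNA, fewer cells of a type and less RNA per cell cannot be told apart. Differences were tested with limma on log2(FPKM + 1) over 6965 genes, and a gene was called where its p, adjusted over all of them by the Benjamini-Hochberg method, was under 0.05. On this scale log2 fold changes of low genes are understated. Member means ran from 3.29 FPKM for Ndufb2 to 271 FPKM for Cox6a1, with a median of 36.4 FPKM, against a median of 8.50 FPKM over all tested genes.

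Facts of the table and of the libraries bear on all counts below. In 15441 of 15446 rows, and in all 59 members, the means of both knockouts were on 1 side of control, either above or below it, so a direction shared by the guides is a property of the rows and not a result about the members. Genes whose guides disagree in direction thus appear to be almost absent from the rows. How the rows were chosen is not given in the sources used here. Every share below is therefore of genes with a row, and not of the whole respiratory chain. Replicate 1 was the highest of its group for 44 of 59 members with guide 1, for 53 of 59 with guide 2 and for 11 of 59 in control. Those shares, 74.6%, 89.8% and 18.6%, stood beside 36.4%, 29.6% and 41.1% of all tested genes. Among the 20 members whose longest annotated transcript is under 1000 nt, replicate 1 was highest for 19 with guide 1 and 19 with guide 2. These shares, 95.0% each, stood beside 46.1% and 58.1% of tested genes of that length. The 35 longer members showed it too, for 24 with guide 1 and 30 with guide 2 (68.6% and 85.7%, against 35.4% and 26.2% of longer tested genes). Counts are therefore also given without replicate 1 of both knockouts, and the part of transcript length in them was not tested. Exons of 22 of the 55 members found in the GENCODE vM21 annotation overlap another gene, 4 of them on the same strand, and whether the submitters counted by strand is not given in the sources used here.

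Lower levels in the knockouts were more common among the members than higher ones. With the mean of both guides against control, 40 of 59 members were lower (67.8%, against 43.3% of all tested genes) and 9 were higher (15.3%, against 37.8%). The median log2 fold change was -0.26 for the members and -0.08 for all tested genes. Single changes were moderate, from -0.79 for Ndufb6, an accessory subunit of complex I, to 0.49 for Atp5mc2, which encodes subunit c of ATP synthase. Left without replicate 1 of both knockouts, 45 members were called lower and 7 higher, against 42.0% and 36.7% of all tested genes. Fitted as 1 group of 6 knockout libraries, so that the difference between the guides enters the error, 26 were called lower and 5 higher, against 28.2% and 24.0% of all tested genes.

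**Figure D1:**
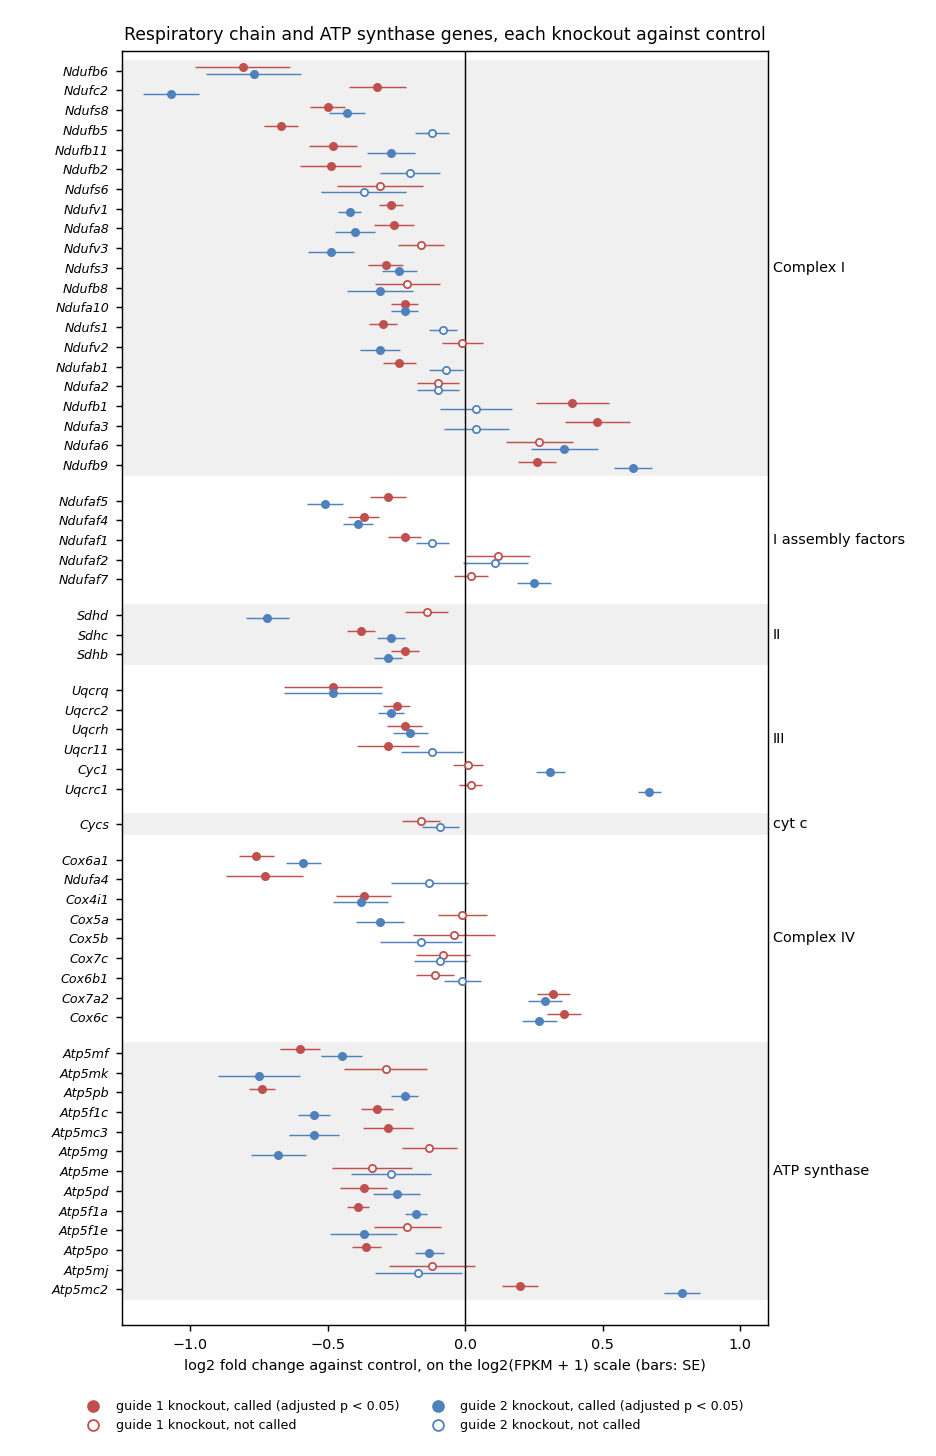
Log2 fold change (log2(FPKM + 1) scale) of 58 of the 59 members with guide 1 (red) and guide 2 (blue) against control, by complex, with bars for the model's SE; filled points passed an adjusted p of 0.05 in limma. Most points lie left of 0, down to -1.07 for Ndufc2 with guide 2, and Atp5mc2 with guide 2 lies farthest right at 0.79.

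Each guide gave a similar count. With guide 1, 31 members were lower (background 37.9%) and 6 higher (background 30.2%), with a median of -0.24 against -0.04 over all tested genes. Guide 2 gave 33 lower (background 33.5%) and 8 higher (background 31.9%), with a median of -0.24 against -0.03. Called lower in each guide separately were 24 members (40.7%, against 26.2% of all tested genes), and called higher in each were Atp5mc2, Cox6c, Cox7a2 and Ndufb9 (6.78%, against 22.6%). All 6 knockout libraries lay below all 3 control libraries for 23 members (39.0%, background 29.0%) and above them for 4 (6.78%, background 24.7%). Both comparisons use the same control libraries.

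Summed over all members, the level was 2545, 2378 and 2301 FPKM with guide 1 and 2734, 2429 and 2325 FPKM with guide 2, against 2882, 2935 and 3029 FPKM in control. No knockout library reached the lowest control library. The members made up 1.39 to 1.82% of the FPKM of a library, and the sum of all uniquely named genes ran only from 162625 to 168619.9 FPKM. By complex the sums differed: ATP synthase genes summed to 634 ± 26.0 FPKM with guide 1 and 689 ± 48.3 FPKM with guide 2, against 799 ± 6.50 FPKM in control (SD, n = 3 each). Complex III genes summed to 267 ± 8.12 and 313 ± 22.7 FPKM with guides 1 and 2, against 302 ± 7.17 FPKM in control, and guide 2 overlapped control there. The sums are dominated by the most abundant genes and were not tested.

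**Figure D2:**
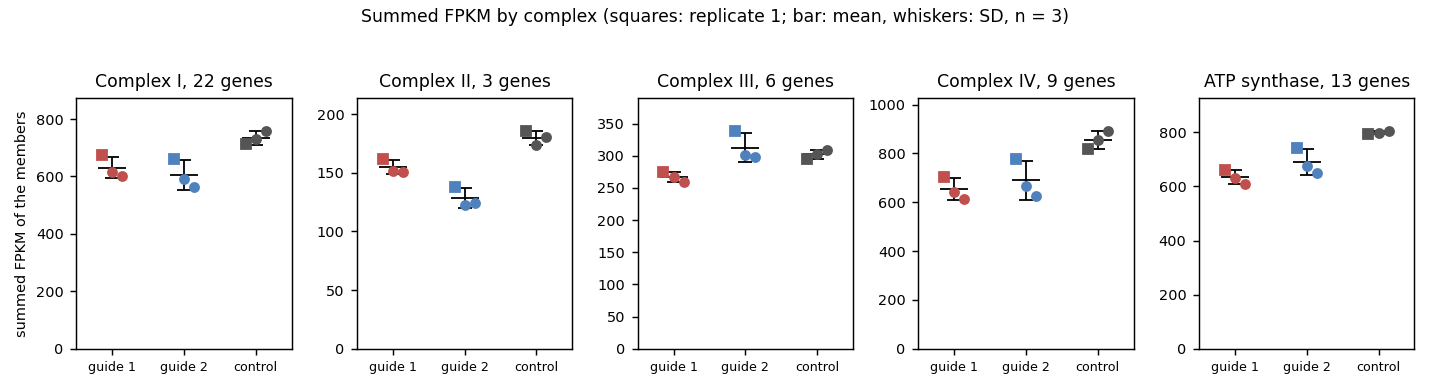
Summed FPKM of the members of each complex in every library, with guide 1 (red), guide 2 (blue) and control (grey); squares mark replicate 1, and bars and whiskers the mean and SD of 3 libraries. Complex I, complex II, complex IV and ATP synthase lie below control in all 6 knockout libraries, while complex III with guide 2 reaches 339 FPKM in replicate 1, above the control libraries at 295 to 309 FPKM.

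Promoters of genes in this system are known to carry binding sites for NRF1, for ETS factors such as GABPA and for YY1. The 200 bases before the start site are shown for 4 members, because they carry an NRF1 match (GCGCATGC on either strand, in capitals) and their transcripts did not move alike: Cox6a1 and Sdhb were lower, Atp5mc2 was higher, and Cycs passed no test. Cox6a1 also holds an ETS match (CCGGAAG on either strand, in capitals) at position -16, counted from 0 at the start site. Sdhb holds an ETS match as well, at position 6, which lies past the bases shown. Sequences are from RefSeq, build GRCm38.p6, 5′ to 3′ on the gene's strand. The build behind the FPKM values is not given in the sources used here.
Cox6a1, chr5:115348959-115349158, minus strand: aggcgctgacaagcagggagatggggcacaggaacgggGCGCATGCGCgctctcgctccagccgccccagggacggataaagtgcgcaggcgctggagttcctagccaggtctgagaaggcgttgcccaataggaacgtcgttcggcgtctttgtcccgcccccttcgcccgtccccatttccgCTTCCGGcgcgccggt
Sdhb, chr4:140961071-140961270, plus strand: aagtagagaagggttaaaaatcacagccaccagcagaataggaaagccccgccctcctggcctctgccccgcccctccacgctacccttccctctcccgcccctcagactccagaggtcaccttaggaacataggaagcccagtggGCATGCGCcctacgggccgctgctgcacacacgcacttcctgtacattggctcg
Atp5mc2, chr15:102671048-102671247, minus strand: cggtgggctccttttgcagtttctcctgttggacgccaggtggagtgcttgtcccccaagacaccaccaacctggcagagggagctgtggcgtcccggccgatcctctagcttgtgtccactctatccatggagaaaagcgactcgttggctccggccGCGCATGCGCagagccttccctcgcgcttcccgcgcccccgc
Cycs, chr6:50566570-50566769, minus strand: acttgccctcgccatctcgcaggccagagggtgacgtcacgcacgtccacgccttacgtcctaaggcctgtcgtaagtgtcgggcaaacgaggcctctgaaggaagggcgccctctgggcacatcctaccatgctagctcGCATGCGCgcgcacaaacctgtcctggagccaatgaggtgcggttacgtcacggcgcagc
In Cox6a1 and Atp5mc2 the capitals are 2 matches on opposite strands that overlap, starting at positions -162 and -160 in Cox6a1 and -42 and -40 in Atp5mc2. Sdhb and Cycs each hold 1 NRF1 match, at -54 and -60.

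Of the 59 members, 44 had a promoter of 300 bases (250 before and 50 after the start) in the RefSeq table. The NRF1 letters were in 12 of the 44 (27.3%), against 2.80% of all 27025 promoters and 6.16% of promoters of tested genes. The ETS letters were in 14 (31.8%, against 9.12% and 19.9%). The YY1 letters (AAGATGGC) were in 5 (11.4%, against 2.88% and 4.67%) and an E-box (CACGTG) in 4 (9.09%, against 7.24% and 10.3%). Of the 31 members called lower with a promoter, 7 held the NRF1 letters, 12 the ETS letters, 4 the YY1 letters and 4 an E-box. Of the 13 others, 5 held the NRF1 letters, 2 the ETS letters and 1 the YY1 letters, and an E-box was in none. These matches are a description of letters in a window, on both strands, and not of binding.

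In complex I, 17 of 22 members were lower for the mean of both guides (77.3%, against 43.3% of all tested genes) and 3 higher (13.6%, against 37.8%), with a median of -0.26. Ndufb6, an accessory subunit of the membrane arm, had 38.4, 27.7 and 25.3 FPKM with guide 1 and 40.0, 28.3 and 25.6 FPKM with guide 2, against 48.5, 53.5 and 58.4 FPKM in control. Every knockout library lay below every control library, although replicate 1 of both knockouts stood apart from the others. The log2 fold changes were -0.81 with guide 1 (SE 0.174, limma adjusted p = 0.00187) and -0.77 with guide 2 (SE 0.174, limma adjusted p = 0.00269). Ndufs8, an iron-sulfur core subunit of the peripheral arm, was close within each group, at 36.1, 39.9 and 33.4 FPKM with guide 1 and 40.7, 37.3 and 36.9 FPKM with guide 2, against 52.0, 52.0 and 51.4 FPKM in control. Its log2 fold changes were -0.50 (limma adjusted p = 5.29e-05) and -0.43 (limma adjusted p = 0.000193) with guides 1 and 2.

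Ndufc2, another accessory subunit of the membrane arm, fell much further with guide 2 than with guide 1. It had 35.6, 29.6 and 33.8 FPKM with guide 1 and 22.5, 19.2 and 16.6 FPKM with guide 2, against 39.6, 40.4 and 44.6 FPKM in control. The 3 groups did not overlap. The log2 fold change was -1.07 with guide 2 (SE 0.103, limma adjusted p = 7.40e-06) and -0.32 with guide 1 (limma adjusted p = 0.0167), and guide 2 minus guide 1 was -0.74 (limma adjusted p = 0.000154). The guide 1 call was lost without guide 1 replicate 2 (-0.25, limma adjusted p = 0.0683) or control replicate 3 (-0.27, limma adjusted p = 0.0599).

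The core subunits Ndufv1 and Ndufs1 of the NADH-oxidising arm were lower with the mean of both guides. Ndufv1, which binds NADH and the flavin, was lower in both, at 29.3 ± 0.327 FPKM with guide 1 and 26.5 ± 0.974 FPKM with guide 2, against 35.6 ± 0.668 FPKM in control (SD, n = 3 each), with log2 fold changes of -0.27 and -0.42 (limma adjusted p = 0.000213 and 1.12e-05). Ndufs1, the large iron-sulfur subunit, was lower with guide 1 (-0.30, limma adjusted p = 0.000413) and not called with guide 2 (-0.08, limma adjusted p = 0.205). The guides differed for Ndufs1 by 0.22 (limma adjusted p = 0.00413), guide 2 minus guide 1.

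Ndufb9, an accessory subunit, went against its complex. Its values were 48.8, 43.9 and 41.5 FPKM with guide 1 and 62.4, 53.4 and 55.4 FPKM with guide 2, against 37.0, 37.2 and 36.8 FPKM in control. All 6 knockout libraries lay above the tight control values, and guide 2 above guide 1. The log2 fold changes were 0.26 with guide 1 (limma adjusted p = 0.00662) and 0.61 with guide 2 (limma adjusted p = 2.64e-05). In GENCODE vM21 its exons overlap the same-strand gene Gm49356, so its reads may be shared. Among further complex I members, Ndufb5 had the largest gap between guides in favour of guide 2: 5.86, 6.14 and 6.46 FPKM with guide 1 and 10.3, 9.05 and 9.11 FPKM with guide 2, against 9.98, 10.8 and 10.4 FPKM in control. Guide 1 alone was called lower (-0.67, limma adjusted p = 3.88e-06), and the guides differed by 0.55 (limma adjusted p = 3.13e-05).

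Other members of complex I ranged less widely. Ndufa8, Ndufa10, Ndufb11 and Ndufs3 were called lower in each guide, at log2 fold changes from -0.22 to -0.48. Ndufab1, the mitochondrial acyl carrier protein that also sits in complex I, and Ndufb2 were called lower with guide 1 alone, Ndufv2, Ndufv3 and Ndufb8 with guide 2 alone. Ndufb2, the member with the lowest mean, had 2.70, 2.82 and 2.14 FPKM with guide 1 and 3.94, 3.00 and 3.07 FPKM with guide 2, against 3.75, 4.56 and 3.64 FPKM in control, and guide 2 overlapped control. Ndufa3 and Ndufb1 were higher with guide 1 alone (0.48 and 0.39, limma adjusted p = 0.00453 and 0.0241), and Ndufa6 with guide 2 alone (0.36, limma adjusted p = 0.0245). Ndufa2 and Ndufs6 were called with neither guide.

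**Figure D3:**
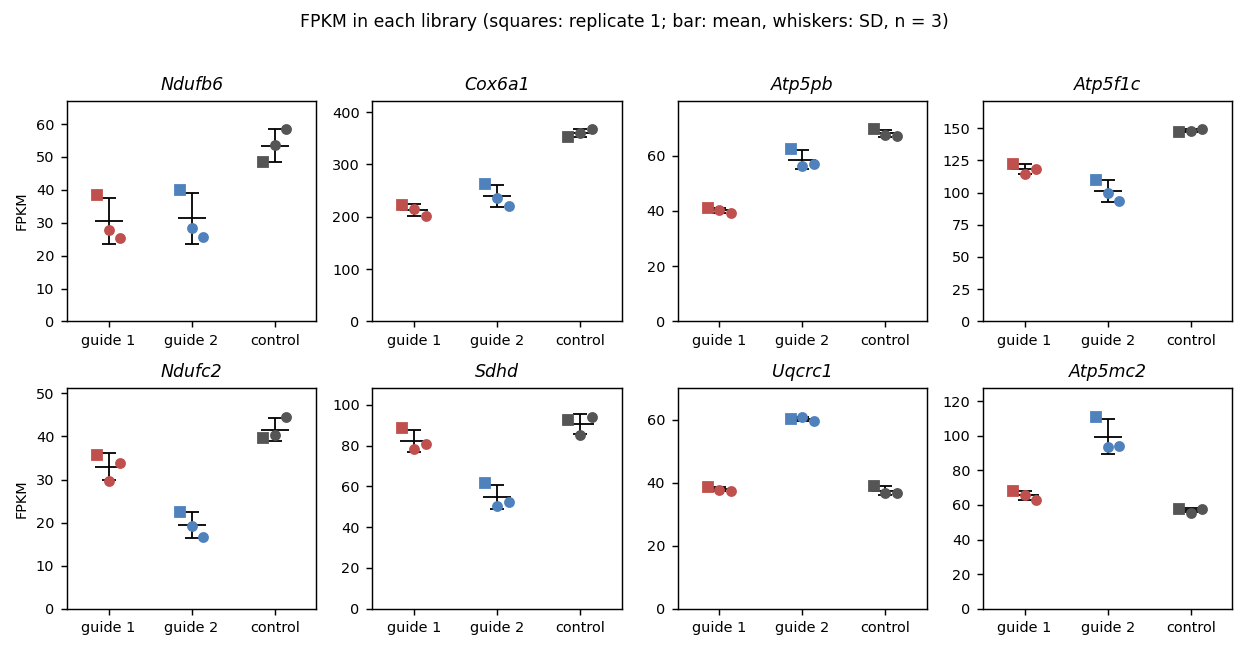
FPKM in each library of 8 members, with guide 1 (red), guide 2 (blue) and control (grey); squares mark replicate 1, bars and whiskers the mean and SD of 3 libraries. Ndufb6, Cox6a1, Atp5pb and Atp5f1c lie below control in all 6 knockout libraries, Ndufc2 and Sdhd are lowest with guide 2, and Uqcrc1 and Atp5mc2 are highest with guide 2, at 59.5 to 61.0 and 93.3 to 111 FPKM.

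Assembly factors of complex I help to build the enzyme and are not part of it. Of the 5 members, 3 were lower for the mean of both guides (60.0%, against 43.3% of all tested genes) and 1 higher (20.0%, against 37.8%). Ndufaf4 had 6.71, 6.71 and 7.23 FPKM with guide 1 and 7.24, 6.41 and 6.71 FPKM with guide 2, against 9.04, 9.12 and 9.44 FPKM in control, so that knockout and control libraries did not overlap. Its log2 fold changes were -0.37 and -0.39 (limma adjusted p = 0.000165 and 0.000135). Ndufaf5, a hydroxylase that modifies a core subunit, was lower in each guide (-0.28 and -0.51, limma adjusted p = 0.00361 and 6.14e-05). Ndufaf1 was called lower with guide 1 alone (-0.22), Ndufaf7, a methyltransferase, higher with guide 2 alone (0.25), and Ndufaf2 with neither.

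All 3 complex II members were lower with the mean of both guides, against 43.3% of all tested genes. Sdhb, the iron-sulfur subunit, had 42.8, 41.4 and 40.5 FPKM with guide 1 and 42.3, 38.7 and 39.0 FPKM with guide 2, against 50.9, 47.1 and 48.1 FPKM in control. Knockout and control libraries did not overlap, and the log2 fold changes were -0.22 and -0.28 (limma adjusted p = 0.00263 and 0.000706). Sdhc, a membrane anchor of the complex, was lower in each guide too (-0.38 and -0.27, limma adjusted p = 7.18e-05 and 0.000978).

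Sdhd, the other membrane anchor, separated the guides. It had 88.5, 78.2 and 80.6 FPKM with guide 1 and 61.7, 50.6 and 52.3 FPKM with guide 2, against 92.8, 85.0 and 94.2 FPKM in control. Guide 1 overlapped control, whereas all guide 2 libraries lay below both. The log2 fold change was -0.72 with guide 2 (SE 0.0786, limma adjusted p = 1.89e-05) and -0.14 with guide 1 (limma adjusted p = 0.147), a difference of -0.58 (limma adjusted p = 0.000127).

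Complex III members divided by direction, with 3 of 6 lower (against 43.3% of all tested genes), 2 higher (33.3%, against 37.8%) and 1 not called. The genes Uqcrc1 and Uqcrc2, the large core proteins of the matrix side, did not move together. Uqcrc1 had 38.8, 37.7 and 37.5 FPKM with guide 1 and 60.2, 61.0 and 59.5 FPKM with guide 2, against 39.1, 36.7 and 36.8 FPKM in control. Only the guide 2 libraries stood apart, with a log2 fold change of 0.67 (SE 0.0412, limma adjusted p = 2.59e-07), while guide 1 was at 0.02 (limma adjusted p = 0.705) and the guides differed by 0.65 (limma adjusted p = 5.87e-07). Uqcrc2 had 45.1 ± 1.75 FPKM with guide 1 and 44.2 ± 1.87 FPKM with guide 2, against 53.7 ± 1.22 FPKM in control (SD, n = 3 each), and was lower in each guide (-0.25 and -0.27, limma adjusted p = 0.000898 and 0.000516).

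Cyc1, the cytochrome c1 subunit that passes electrons to cytochrome c, followed Uqcrc1. It had 74.1, 72.6 and 78.8 FPKM with guide 1 and 95.5, 92.6 and 90.9 FPKM with guide 2, against 74.0, 70.5 and 79.6 FPKM in control. Guide 2 lay above both other groups (0.31, limma adjusted p = 0.000452) and guide 1 within control (0.01, limma adjusted p = 0.873). The call on their mean (0.16, limma adjusted p = 0.00845) was lost without control replicate 2 (0.12, limma adjusted p = 0.0504). Uqcrh, the hinge subunit, was lower in each guide (-0.22 and -0.20, limma adjusted p = 0.00933 and 0.0158), the guide 2 call being lost without guide 2 replicate 2 or 3 (-0.19 and -0.16, limma adjusted p = 0.0517 and 0.0656). Uqcrq was lower in each guide with wide spread (-0.48 in both, limma adjusted p = 0.0333 and 0.0349), and Uqcr11 with guide 1 alone.

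Cycs, the cytochrome c of somatic cells, had 34.5, 35.2 and 31.3 FPKM with guide 1 and 38.9, 33.9 and 33.8 FPKM with guide 2, against 37.1, 36.1 and 40.0 FPKM in control. The groups overlapped, and neither guide passed (-0.16 and -0.09, limma adjusted p = 0.0619 and 0.297). Their mean (-0.12, with a limma adjusted p = 0.0792) was called lower without guide 2 replicate 1 (-0.15, limma adjusted p = 0.0205).

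Complex IV was mixed, with 3 of 9 members lower (33.3%, against 43.3% of all tested genes), 2 higher (22.2%, against 37.8%) and 4 not called. Its sum was low mainly through Cox6a1, the ubiquitous form of subunit VIa and the most abundant member. Cox6a1 had 223, 214 and 201 FPKM with guide 1 and 263, 235 and 221 FPKM with guide 2, against 353, 360.1 and 367 FPKM in control. All knockout libraries lay far below all control libraries. The log2 fold changes were -0.76 with guide 1 (SE 0.0635, limma adjusted p = 2.12e-06) and -0.59 with guide 2 (SE 0.0635, limma adjusted p = 1.67e-05). The difference between guides, 0.17 (limma adjusted p = 0.0467), was not called on leaving out any single library other than guide 1 replicate 1 and guide 2 replicate 3, lying then between 0.10 and 0.18.

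Cox4i1, the ubiquitous form of subunit IV, was lower in each guide, at 122 ± 10.5 FPKM with guide 1 and 121 ± 19.4 FPKM with guide 2, against 157 ± 4.42 FPKM in control (SD, n = 3 each). Its log2 fold changes were -0.37 and -0.38 (limma adjusted p = 0.00743 and 0.00635). Ndufa4, named for complex I but known as a complex IV subunit, had 48.3, 37.7 and 36.6 FPKM with guide 1 and 74.9, 58.0 and 54.7 FPKM with guide 2, against 58.9, 69.2 and 76.2 FPKM in control. Guide 1 lay below both other groups (-0.73, SE 0.139, limma adjusted p = 0.000907), and guide 2 overlapped control (-0.13, limma adjusted p = 0.444). Guide 2 minus guide 1 was 0.60 (limma adjusted p = 0.00426).

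Cox6c, a small membrane subunit, rose in both knockouts. It had 22.5, 22.0 and 20.4 FPKM with guide 1 and 22.3, 19.5 and 19.3 FPKM with guide 2, against 16.2, 17.1 and 16.6 FPKM in control, and its log2 fold changes were 0.36 and 0.27 (limma adjusted p = 0.000448 and 0.00316). Cox7a2, the form of subunit VIIa found in most tissues, behaved likewise, at 57.0, 55.6 and 55.1 FPKM with guide 1 and 59.6, 54.5 and 49.8 FPKM with guide 2, against 44.9, 43.1 and 45.6 FPKM in control (0.32 and 0.29, limma adjusted p = 0.000783 and 0.00187). In both genes every knockout library exceeded every control library. Cox5a, which binds the matrix side of the enzyme, was lower with guide 2 alone (-0.31, limma adjusted p = 0.0108), and the groups overlapped for Cox5b, Cox6b1 and Cox7c.

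Muscle forms of complex IV subunits were near 0. Cox7a1 averaged 0.00920 FPKM and Cox6a2 0.193 FPKM over the 9 libraries, both under the minimum of 1 FPKM. Cox6a2, the heart and muscle form of subunit VIa, was listed at 0.708, 0.403 and 0.553 FPKM with guide 2 and at 0, 0.0733 and 0 FPKM with guide 1, against 0 FPKM in each control library. Just outside the minimum stood Cox6c2 at 0.431 FPKM, and just inside it Ndufb2 at 3.29 FPKM. Pseudogene rows held signal too, with means of 8.48 FPKM for Cox5b-ps, 4.60 FPKM for Ndufab1-ps and 2.91 FPKM for Atp5pb-ps beside members of like name, and 41.8 FPKM for Ndufa12-ps. How reads were split between such a row and Cox5b, Ndufab1 or Atp5pb was not tested, and the levels of these 3 members are uncertain to that extent.

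ATP synthase gave 11 of 13 members lower (84.6%, against 43.3% of all tested genes) and 1 higher (7.69%, against 37.8%), with a median of -0.31. Atp5pb, subunit b of the stalk that holds the head still, had 41.1, 40.2 and 39.3 FPKM with guide 1 and 62.5, 56.2 and 56.9 FPKM with guide 2, against 69.5, 67.6 and 67.1 FPKM in control. The 3 groups were apart, with guide 1 lowest. The log2 fold changes were -0.74 with guide 1 (SE 0.0484, limma adjusted p = 3.03e-07) and -0.22 with guide 2 (limma adjusted p = 0.00268), and the guides differed by 0.53 (limma adjusted p = 7.98e-06).

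In the catalytic head, Atp5f1c, the gamma subunit that turns inside it, had 122, 114 and 118 FPKM with guide 1 and 110.1, 99.7 and 93.2 FPKM with guide 2, against 147, 148 and 149 FPKM in control. Both knockouts lay well below control, guide 2 lower (-0.55, limma adjusted p = 1.37e-05) than guide 1 (-0.32, limma adjusted p = 0.000549), with a difference of -0.23 (limma adjusted p = 0.00707). Atp5f1a, the alpha subunit, averaged 169.7 ± 4.58 FPKM with guide 1 and 196 ± 4.88 FPKM with guide 2, against 222 ± 5.43 FPKM in control (SD, n = 3 each), so here guide 1 was the lower. Its log2 fold changes were -0.39 and -0.18 (limma adjusted p = 1.06e-05 and 0.00232). Atp5mf, subunit f in the membrane, was lower in each guide (-0.60 and -0.45, limma adjusted p = 3.60e-05 and 0.000315), as were the stalk genes Atp5pd (-0.37 and -0.25) and Atp5po (-0.36 and -0.13).

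The c ring showed a contrast between Atp5mc2 and Atp5mc3, which encode the same mature protein. Their paralog Atp5mc1 was not analysed here. Atp5mc2 had 68.0, 65.7 and 63.0 FPKM with guide 1 and 111, 93.3 and 93.9 FPKM with guide 2, against 57.9, 55.5 and 57.7 FPKM in control. Atp5mc3 had 88.2, 82.3 and 75.0 FPKM with guide 1 and 77.6, 65.7 and 60.3 FPKM with guide 2, against 93.1, 101 and 104 FPKM in control. Neither gene's knockout libraries overlapped its control libraries, and the genes lay on opposite sides. With guide 2 the log2 fold changes were 0.79 for Atp5mc2 (SE 0.0655, limma adjusted p = 2.46e-06) and -0.55 for Atp5mc3 (SE 0.0911, limma adjusted p = 0.000361). With guide 1 they were 0.20 and -0.28 (limma adjusted p = 0.0211 and 0.0184), and each of these guide 1 calls was lost on leaving out any of 3 single libraries, with the sign kept. For Atp5mc2 these were guide 1 replicate 1 or 2 and control replicate 2 (0.17 to 0.20, limma adjusted p from 0.0514 to 0.0719), and for Atp5mc3 guide 1 replicate 3 and control replicate 2 or 3 (-0.22 to -0.27, limma adjusted p from 0.0509 to 0.0729).

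Further small subunits of ATP synthase were called lower with guide 2 alone. Atp5mg, subunit g, had 8.44, 7.39 and 6.88 FPKM with guide 1 and 5.77, 4.56 and 4.30 FPKM with guide 2, against 7.68, 8.66 and 8.80 FPKM in control. Guide 1 overlapped control (-0.13, limma adjusted p = 0.264), guide 2 did not (-0.68, limma adjusted p = 0.000169), and the guides differed by -0.55 (limma adjusted p = 0.000993). Atp5mk, a small membrane subunit, was called with guide 2 alone (-0.75, limma adjusted p = 0.00130), as was Atp5f1e, the epsilon subunit (-0.37, limma adjusted p = 0.0217), while Atp5me and Atp5mj were called with neither.

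Between the knockouts themselves, guide 2 was higher than guide 1 for 14 members (background 31.2%) and lower for 14 (background 23.3%), with a median of 0.00 against 0.04 over all tested genes. Complex III had 2 of 6 members higher, Uqcrc1 and Cyc1, complex I 5 higher and 7 lower of 22, and ATP synthase 4 higher and 4 lower of 13. The widest gaps were Uqcrc1, Ndufa4 and Atp5mc2 upward and Ndufc2, Sdhd and Atp5mg downward. The count of lower members was 9 without guide 2 replicate 2 (background 21.3%) and 9 without guide 2 replicate 3 (background 21.6%). Several small gaps lost their call when 1 library was left out, with the sign kept. Ndufv1 (-0.14) was then at -0.13, without guide 2 replicate 2 or 3, and Cox5a (-0.29) between -0.22 and -0.24, without guide 1 replicate 1 or guide 2 replicate 2 or 3. Atp5mc3 (-0.27) was between -0.19 and -0.27 without guide 1 replicate 1 or 2 or guide 2 replicate 2 or 3, and Ndufb2 (0.29) between 0.19 and 0.33 without replicate 1 or 3 of any of the 3 groups.

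Neighbouring mitochondrial genes were counted in lists of textbook members. For the mean of both guides, the tricarboxylic acid cycle had 8 of 9 tested genes lower (88.9%, against 43.3% of all tested genes) and 1 higher (11.1%, against 37.8%), with a median of -0.22. Tested separately, guide 1 gave 7 lower (background 37.9%) and guide 2 gave 5 (background 33.5%), and 4 genes were lower in each guide (background 26.2%). Mdh2, malate dehydrogenase, had 106, 109.6 and 109 FPKM with guide 1 and 123, 119.8 and 118 FPKM with guide 2, against 175, 178 and 176 FPKM in control, with no overlap (-0.70 and -0.55, limma adjusted p = 5.61e-08 and 4.48e-07). Ogdh, of the oxoglutarate dehydrogenase complex, was lower with guide 1 (-0.63, limma adjusted p = 1.58e-06) and not called with guide 2 (-0.12, limma adjusted p = 0.0667). Genes of the outer membrane, protein import and carriers gave 7 of 12 lower (58.3%, against 43.3% of all tested genes) and 2 higher (16.7%, against 37.8%). Guide 1 gave 7 lower (background 37.9%) and 1 higher (background 30.2%). Guide 2 gave 3 lower, a share below the background of 33.5%, and 2 higher (background 31.9%). The pore Vdac1 was lower in each guide (-0.42 and -0.55, limma adjusted p = 3.98e-05 and 7.18e-06). The import subunit Tomm7 was lower with guide 1 alone (-0.66, limma adjusted p = 0.00554).

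Assembly factors outside the symbol rule differed by complex. Those of complex I gave 5 of 8 lower (62.5%, against 43.3% of all tested genes) and 0 higher (against 37.8%). The same 4 were lower in each guide (background 26.2%). They were led by Acad9 (-0.91 and -0.22, limma adjusted p = 1.84e-07 and 0.00570) and Ecsit (-0.39 and -0.56, limma adjusted p = 0.000346 and 2.78e-05). Complex IV factors and copper chaperones were split, with 8 of 14 higher (57.1%, against 37.8% of all tested genes) and 6 lower (42.9%, against 43.3%), and a median of 0.28. Their median was 0.09 with guide 1, where 6 were higher (background 30.2%) and 5 lower (background 37.9%). With guide 2 it was 0.12, where 6 were higher (background 31.9%) and 3 lower (background 33.5%). Sco2, a copper chaperone of complex IV, had 13.0, 10.1 and 13.3 FPKM with guide 1 and 9.59, 8.64 and 9.29 FPKM with guide 2, against 4.97, 7.30 and 5.93 FPKM in control, all knockout libraries above control (0.90 and 0.54, limma adjusted p = 8.32e-05 and 0.00309). Cox16, another assembly factor, was at 0.0254, 0.174 and 0.0205 FPKM with guide 2 and 1.42, 1.75 and 1.41 FPKM with guide 1, against 1.91, 1.74 and 2.22 FPKM in control. It was thus close to 0 in the guide 2 libraries alone (-1.46, limma adjusted p = 5.50e-07), and guide 1 was not called (-0.23, limma adjusted p = 0.0639).

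The remaining lists were small. Coenzyme Q synthesis gave 5 of 9 lower (55.6%, against 43.3% of all tested genes) and 3 higher (33.3%, against 37.8%), with Pdss1 lower (-0.33, limma adjusted p = 0.000216) and Coq10a higher (0.41, limma adjusted p = 0.000554) for the mean of both guides. The complex III factors Uqcc1 and Ttc19 were both lower with guide 1 (-0.34 and -0.43, limma adjusted p = 0.000451 and 0.000279), and neither was called with guide 2 (-0.03 and -0.06, limma adjusted p = 0.665 and 0.454). Guide 2 was higher than guide 1 for both, by 0.31 and 0.37 (limma adjusted p = 0.00127 and 0.00122). The ATP synthase factors gave 1 higher, Tmem70 (0.28, limma adjusted p = 0.000273), and 1 lower, Atpaf1 (-0.44, limma adjusted p = 5.82e-05), of 3. Each is 33.3%, against 37.8% higher and 43.3% lower of all tested genes. The complex II factors Sdhaf1 and Sdhaf2 did not pass (-0.10 and -0.12, limma adjusted p = 0.158 and 0.0709).

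**Figure D4:**
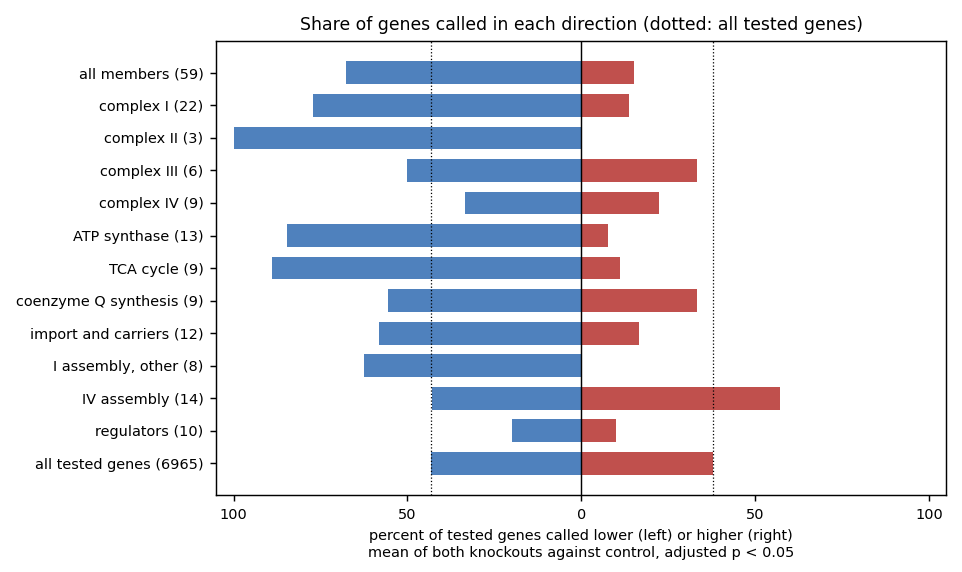
Share of tested genes called lower (left, blue) or higher (right, red) for the mean of both knockouts against control in limma, by complex and by list, with the number of genes in brackets and dotted lines at the shares of all tested genes (43.3% lower, 37.8% higher). Complex II (3 of 3 lower), the tricarboxylic acid cycle (88.9% lower), ATP synthase (84.6%) and complex I (77.3%) reach well past the left dotted line, and complex IV assembly factors (57.1% higher) past the right one.

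Regulators of respiratory gene transcription and of mitochondrial DNA gave 2 of 10 lower (20.0%) and 1 higher (10.0%), below the 43.3% and 37.8% of all tested genes, with a median of 0.01. Ppargc1a, which encodes the coactivator PGC-1alpha, had 1.89, 1.45 and 1.81 FPKM with guide 1 and 0.342, 0.403 and 0.514 FPKM with guide 2, against 3.73, 3.26 and 3.17 FPKM in control. The groups did not overlap, with guide 2 lowest. The log2 fold changes were -0.69 with guide 1 (limma adjusted p = 5.80e-05) and -1.63 with guide 2 (limma adjusted p = 1.23e-07). Nrf1, which encodes the factor whose letters were searched above, was lower with guide 1 (-0.22, limma adjusted p = 0.00298) and not called with guide 2 (-0.06, limma adjusted p = 0.315).

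Some cell-type markers also differed between the groups. The squamous label could be checked only in part: Krt15, Krt16, Krt17 and Col17a1 averaged under 1 FPKM, and Krt5 and Krt14 were not analysed here. The 9 squamous markers with a row, of 18 listed, summed to 115 to 125 FPKM with guide 1 and 86.8 to 91.6 FPKM with guide 2, against 79.1 to 87.2 FPKM in control. Most of each sum was Perp, at 100.2 to 108 and 80.1 to 85.8 FPKM with guides 1 and 2, against 75.0 to 82.6 FPKM in control. The 4 tested ones, Sfn, Perp, Itga6 and Cldn1, were higher for the mean of both guides and with guide 1, but only Sfn and Cldn1 with guide 2. Itgb4, under the minimum for testing, averaged 0.309 FPKM with guide 1 and 0.612 FPKM with guide 2, against 0.843 FPKM in control. The 5 fibroblast markers with a row, of 15 listed, summed to 32.1 to 35.0 and 34.0 to 36.9 FPKM with guides 1 and 2, against 29.1 to 31.3 FPKM in control. Of 3 tested, Postn and Twist2 were higher and Prrx1 lower for the mean of both guides. Prrx1 made up most of each sum, at 22.2 to 23.3 and 20.2 to 22.5 FPKM with guides 1 and 2, against 25.1 to 27.6 FPKM in control. Dpt was at 0 in all but 1 library. The 2 leukocyte markers with a row, of 18 listed, summed to 1.20 to 1.54 and 1.81 to 2.67 FPKM, against 0.473 to 0.875 FPKM in control. Lyz2 was at 0 to 0.204 FPKM, so these sums are almost Cd68 alone, which was called higher. Markers of striated muscle and of brown fat, tissues rich in mitochondria, stayed under 1 FPKM in sum in every library. Their part in the member results was not tested.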

How the data were processed

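Polyadenylated RNA of 9 ROC6 libraries was sequenced in pairs with strand kept (labels' protocols). The authors deposited FPKM values per gene and library, per the file headers, made with tools that include HISAT2, StringTie, cutadapt and FastQC, per the submitters' processing notes, which give them no role or order. For these tools no version, and for the reads no genome build, is given in the sources used here. FPKM holds no counts, so depth is unknown and no interval from counts is given.

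Groups and replicate numbers came from sample titles. Of 15620 rows, 174 that share 62 symbols were left out. The 6965 genes averaging at least 1 FPKM were analysed as log2(FPKM + 1) with limma 3.58.1 in R 4.3.3, in 1 fit of the 9 libraries together, the prior variance following the mean. Contrasts were each guide and their mean against control, and guide 2 against guide 1, adjusted by the Benjamini-Hochberg method over all tested genes. The fit was tested on simulated data in which 200 of 6965 genes were changed. It recovered 32.5% of changes of 0.25 in log2, 93% of changes of 0.5 and 99.5% of changes of 1. False calls were 1.52%, 5.58% and 3.86% of the calls. In the real data 81.1% of tested genes were called for the mean of both guides, so the simulated setting differs from them. Levels are means ± SD over 3 libraries. The targeted gene and the mitochondrially encoded genes were not analysed here. Other columns of per-sample values numbered 0.

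The members and lists were chosen with earlier results of these data known. Named members were up to 3 of the largest per complex and direction called in each guide with no overlap, the 3 widest gaps between guides in each direction, core subunits, subunits with a paralog, the lowest and highest means, and the 2 largest called genes of each other list. Members outside this rule, Ndufb5 and Ndufaf4 among them, were named to cover more of the members, after their values were seen. Counts and sums cover all 59 members, and the values of 1 of them are not reported here.

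Alternatives were another pseudocount (0.1), other filters (none, 5 FPKM), quantile and trimmed mean scaling, a replicate block, a constant prior variance, the 6 knockout libraries as 1 group, only the libraries compared, and each library left out. Leaving out replicate 1 of both knockouts together was added after seeing the data. Promoters were taken from RefSeq, GRCm38.p6, for 44 members.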

Additional observations from a re-analysis of the deposited data

Results flagged for a closer look

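Named members whose response differed between the guides by the limma test of guide 2 against guide 1 are given as the difference in log2(FPKM + 1), guide 2 minus guide 1. In complex I the differences were -0.74 for Ndufc2, 0.35 for Ndufb9, 0.22 for Ndufs1, -0.14 for Ndufv1 and 0.29 for Ndufb2. Sdhd of complex II differed by -0.58. Complex III gave 0.65 for Uqcrc1 and 0.30 for Cyc1. Complex IV gave 0.60 for Ndufa4, 0.17 for Cox6a1 and -0.29 for Cox5a. In ATP synthase the differences were 0.59 for Atp5mc2, 0.53 for Atp5pb, -0.23 for Atp5f1c, -0.55 for Atp5mg and -0.27 for Atp5mc3.

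Of the 12 matching names outside the comparisons, 3 with low values are given because all libraries of a knockout lay above all control libraries. Atp5l-ps1 averaged 0.246 FPKM with guide 1 against 0.0575 FPKM in control, Cox6c2 averaged 0.653 FPKM with guide 1 against 0.291 FPKM in control, and Cox6a2 averaged 0.554 FPKM with guide 2 and was listed at 0 in each control library. None of these was tested. Among more abundant pseudogene rows, Ndufa12-ps averaged 29.3 FPKM with guide 1 and 44.6 FPKM with guide 2, against 51.6 FPKM in control. Its guide 2 libraries, at 60.1, 46.9 and 26.7 FPKM, overlapped control at 49.7, 48.5 and 56.7 FPKM. Atp5pb-ps averaged 2.28 and 3.06 FPKM with guides 1 and 2, against 3.38 FPKM in control, and guide 2 overlapped control. Cox5b-ps averaged 8.53 and 8.28 FPKM, against 8.65 FPKM, and Ndufab1-ps 4.25 and 4.67 FPKM, against 4.87 FPKM.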

How the results depend on the processing

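Counts of members called stayed within 1.5 times the values above for 140 pairs of count and alternative and moved further for 4. With the 6 knockout libraries as 1 group, 26 members were lower and 5 higher, because the difference between guides then enters the error. Leaving out 1 library gave 34 to 44 lower and 6 to 9 higher for the mean of both guides. Of all tested genes, 39.7 to 42.8% were then lower and 34.1 to 37.8% higher. With guide 1 there were 28 to 33 lower (background 35.1 to 38.2%) and 5 to 7 higher (background 27.7 to 30.8%). With guide 2 there were 26 to 38 lower (background 30.5 to 33.2%) and 7 to 8 higher (background 29.3 to 31.6%). Guide 2 against guide 1 gave 11 to 15 higher (background 26.9 to 31.9%) and 9 to 16 lower (background 20.7 to 23.9%). The lowest count, 9, came without guide 2 replicate 2 or 3. The cause was not tested. For the mean of both guides, 25 members were called lower and 4 higher (Atp5mc2, Cox6c, Cox7a2, Ndufb9) under each alternative whose filter kept them. Of the single-guide calls, Ndufc2, Atp5mc2 and Atp5mc3 with guide 1 and Uqcrh with guide 2 each lost theirs on leaving out some single libraries, as given above.

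Replicate numbers are not stated to pair the samples. Over all tested genes, deviations from the group mean correlated between guides 1 and 2 at 0.24, 0.02 and 0.21 for replicates 1, 2 and 3. With control they correlated at -0.06, 0.03 and -0.10 for guide 1 and at -0.11, 0.06 and -0.09 for guide 2. Whether replicates of the same number belong together was not tested. A replicate block gave 39 lower and 8 higher for the mean of both guides, against 43.3% and 37.8% of all tested genes. Calls of named members were lost for Atp5mg, Cyc1, Ndufa4, Ndufs1, Sdhd and Uqcrc1 with the knockouts as 1 group, and for Cyc1 without control replicate 2. No direction reversed. Unknown depth and 3 libraries a group limit what small differences can show.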
